A study of Homo sapiens with 8 samples.

Results

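The nuclear genes for the subunits of the respiratory chain and of ATP synthase were examined in NB4 cells. NB4 is an established human line of acute promyelocytic leukaemia, driven by the PML-RARA fusion, whose cells mature into granulocyte-like cells when given all-trans retinoic acid (ATRA). Members were all protein-coding genes whose current RefSeq symbols belong to the NDUF subunit series (complex I), SDHA to SDHD (complex II), UQCR (complex III), COX4 to COX8 (complex IV) or ATP5 (complex V), without pseudogenes or read-through genes. This gave 85 members of 18727 genes with a protein-coding transcript model in the files: 36 in complex I, 4 in complex II, 9 in complex III, 17 in complex IV and 19 in complex V. RNA sequencing covered 4 groups: cells with a lentiviral hairpin to deplete TFEB mRNA (shTFEB) given ATRA or ethanol vehicle, and cells with a scrambled hairpin (shScr) given ATRA or ethanol vehicle. TFEB activates genes of lysosomes and autophagy. ATRA was used at 1 µM and both treatments lasted 72 h. All groups descend from NB4 and all carry a lentiviral hairpin, the labels do not say whether the lines are clones, and wild-type NB4 cells were not analysed here.

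The labels give 2 samples per group, but each deposited table gives a transcript model 1 FPKM for the whole group (fragments scaled by the length of the model and by the mapped fragments). The error between samples is therefore unknown. No test was run, no p-value is given, and each ratio stands without a replicate check. Ratios are log2 of (FPKM + 1) over (FPKM + 1). A gene is said to rise or fall where it was at least 2-fold apart, a log2 ratio of 1 in size, and a smaller mark of 1.5-fold is also counted. Only genes that averaged 1 FPKM or more were compared, which were 80 of the 85 members and 10212 genes in all.

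Complexes I and II pass electrons from NADH and succinate to coenzyme Q, complex III passes them to cytochrome c and complex IV to oxygen, while complexes I, III and IV pump protons across the inner mitochondrial membrane. Complex V, ATP synthase, lets the protons flow back through a ring of c subunits and uses the rotation to make ATP in its F1 head. Most subunits are encoded in the nucleus and imported. A core of subunits of complexes I, III, IV and V is encoded by mitochondrial DNA, on which the tables have 0 models, so the mitochondrial part was not measured. Neutrophils are known for few mitochondria and for a reliance on glycolysis.

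The cells carried the marks of the labelled line and treatment, with a reservation on the hairpin. The early granule genes MPO, PRTN3 and AZU1 were expressed in the vehicle groups, and all 3 fell with ATRA in both lines, as did CTSG; MPO had 594 FPKM with ATRA and 2462 with vehicle in shTFEB cells, and 662 and 3871 in shScr cells. ELANE and KIT, of the same list of 7, stood at or near 0, and CD33 passed no mark, with 25.6 FPKM with ATRA and 25.3 with vehicle in shTFEB cells, and 29.3 and 23.4 in shScr cells (log2 0.02 and 0.31). All 5 granulocyte maturation markers rose with ATRA in both lines; ITGAM had 54.6 FPKM with ATRA and 5.63 with vehicle in shTFEB cells, against 83.1 and 2.18 in shScr cells. HBB, PF4 and GP9, of red cells and platelets, were listed at 0 in every group, and of 5 lymphoid markers only NKG7 passed the filter, with 111 FPKM with ATRA and 26.4 with vehicle in shTFEB cells and 168 and 23.6 in shScr cells. Of 4 non-blood markers COL1A1 was at 0.190 FPKM or less, and EPCAM, PECAM1 and KRT18 passed the filter. TFEB (chr6:41651716-41703997, hg19) had 8.44 FPKM in shTFEB cells and 19.4 FPKM in shScr cells under ATRA, and 1.35 and 1.203 FPKM under vehicle. The targeted mRNA was thus at 43.6% of shScr cells under ATRA (log2 ratio -1.11) and was not lower in the vehicle group labelled shTFEB (log2 ratio 0.10), so that comparison rests on the label. Read from the spacing of the lowest FPKM, depth relative to shScr vehicle was 0.911 for shTFEB ATRA, 1.17 for shTFEB vehicle and 1.05 for shScr ATRA.

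The members were among the most abundant mRNAs of these cells. The median of their mean FPKM was 100.01, against 12.2 for all genes compared; 78 of the 80 lay above the all-gene median. Together they made up 2.87% of the FPKM of protein-coding models in shTFEB ATRA cells and 3.12% in shTFEB vehicle cells, and 2.51% in shScr ATRA cells and 3.07% in shScr vehicle cells. The share was lower with ATRA in both lines, and under ATRA it was higher in shTFEB than in shScr cells.

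Promoters of respiratory genes are known for sites of the factors NRF1, GABPA (of the ETS family) and YY1, and TFEB binds E-boxes, in particular the longer CLEAR element. Promoter windows from 250 bases before to 50 bases after the gene start, from RefSeq (GRCh38.p14), were found for 69 members and searched on both strands. The NRF1 site, GCGC and TGCGC with any base between them, was in 17 member windows (24.6%), against 6.28% of all 27305 windows. The ETS core CCGGAAG was in 20 (28.99%, against 10.7%) and the YY1 core AAGATGG in 16 (23.2%, against 6.06%). The E-box CACGTG was in 7 (10.1%, against 7.43%). The CLEAR element, the E-box with GT before and AC after it, was in 0 of 69 member windows and 0.381% of all windows. The 27305 windows outnumber the 18727 genes with a protein-coding model and were not limited to genes compared here. They are thus a set unlike the members, which are protein-coding and mostly abundant. Windows of 225 bases (200 before the start) are shown for 4 members that differ in these letters and in their response to ATRA, with each match in capitals.
ATP5MC1: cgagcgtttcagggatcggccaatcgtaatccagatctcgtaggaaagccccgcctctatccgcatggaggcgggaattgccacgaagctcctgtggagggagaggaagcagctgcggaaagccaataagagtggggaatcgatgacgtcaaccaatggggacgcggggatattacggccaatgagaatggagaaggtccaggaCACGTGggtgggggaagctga
NDUFB1: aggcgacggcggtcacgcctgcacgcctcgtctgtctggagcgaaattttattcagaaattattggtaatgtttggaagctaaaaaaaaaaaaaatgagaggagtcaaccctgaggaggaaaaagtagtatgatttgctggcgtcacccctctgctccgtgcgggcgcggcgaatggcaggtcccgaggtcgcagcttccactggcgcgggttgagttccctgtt
SDHA: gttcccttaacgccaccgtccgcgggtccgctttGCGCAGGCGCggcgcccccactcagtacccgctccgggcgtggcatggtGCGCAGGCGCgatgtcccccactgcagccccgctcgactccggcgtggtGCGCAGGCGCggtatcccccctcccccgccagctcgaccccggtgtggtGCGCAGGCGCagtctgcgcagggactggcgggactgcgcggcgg
COX5B: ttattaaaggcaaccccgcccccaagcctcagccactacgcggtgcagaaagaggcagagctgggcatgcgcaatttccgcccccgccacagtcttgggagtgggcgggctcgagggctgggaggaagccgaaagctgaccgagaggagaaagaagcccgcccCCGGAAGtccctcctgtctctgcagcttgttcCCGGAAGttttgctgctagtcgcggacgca
The window of ATP5MC1 (chr17:48892587-48892811, plus strand), the member that fell most, holds 1 E-box just after the start. That of NDUFB1 (chr14:92121682-92121906, minus strand), the member with the highest ratio, holds none of the motifs. Of the other members that fell in shScr cells, NDUFB10 and NDUFA5 hold none either in the windows searched, and NDUFB9 and NDUFS5 have no window. The window searched for NDUFS3 holds ETS cores alone. That of ATP5ME holds NRF1 sites, an ETS core, a YY1 core and an E-box. SDHA (chr5:218120-218344, plus strand) has 4 NRF1 matches, here on the reverse strand, and COX5B (chr2:97645862-97646086, plus strand) has 2 ETS cores. A match is a run of letters and not a shown binding site. Among members with a window that were compared, the 7 with an E-box had a median log2 ratio for ATRA of -0.48 in shTFEB cells and -0.68 in shScr cells, beside -0.23 and -0.46 for the 59 without it. For the 20 with an ETS core the medians were -0.09 in shTFEB cells and -0.42 in shScr cells, beside -0.26 and -0.53 for the 46 without it. The 16 with an NRF1 site had -0.25 and -0.54, beside -0.23 and -0.46 for the 50 without it, and the 16 with a YY1 core had -0.24 and -0.47, beside -0.24 and -0.51 for the 50 without it.

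ATRA against vehicle asks how the mRNAs of the energy-producing complexes stand after granulocytic maturation. Summed over all members, FPKM with ATRA was 85.0% of vehicle in shTFEB cells and 72.1% of vehicle in shScr cells. The sums differed by complex. Complex I had 3114 FPKM with ATRA and 3867 with vehicle in shTFEB cells, against 2615 and 3819 in shScr cells. Complex III had 989 and 1278 FPKM in shTFEB cells, against 861 and 1305 in shScr cells, and complex V had 4432 and 5515 FPKM, against 3681 and 5484. In these 3 complexes the ATRA sums were 77.4% to 80.5% of vehicle in shTFEB cells and 66.0% to 68.5% of vehicle in shScr cells. Complex IV had 3411 FPKM with ATRA and 3408 with vehicle in shTFEB cells (100.1%), and 2883 with ATRA and 3327 with vehicle in shScr cells (86.7%). The 4 genes of complex II had 260.1 and 288.8 FPKM in shTFEB cells (90.1%) and 215.6 and 281.8 FPKM in shScr cells (76.5%). Complex IV made up 27.9% of the members' FPKM with ATRA and 23.7% with vehicle in shTFEB cells, and 28.1% with ATRA and 23.4% with vehicle in shScr cells. The ratio of complex V to complex IV was 1.299 with ATRA and 1.62 with vehicle in shTFEB cells, and 1.28 and 1.65 in shScr cells. These shares and ratios do not depend on how the groups are scaled, but they do depend on the level of each gene. The summed FPKM of every complex lay above its summed upper bounds in every group, so these levels are uncertain. For complex IV it was 3411 against 2248 FPKM in shTFEB ATRA cells and 3327 against 2184 in shScr vehicle cells.

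**Figure D1:**
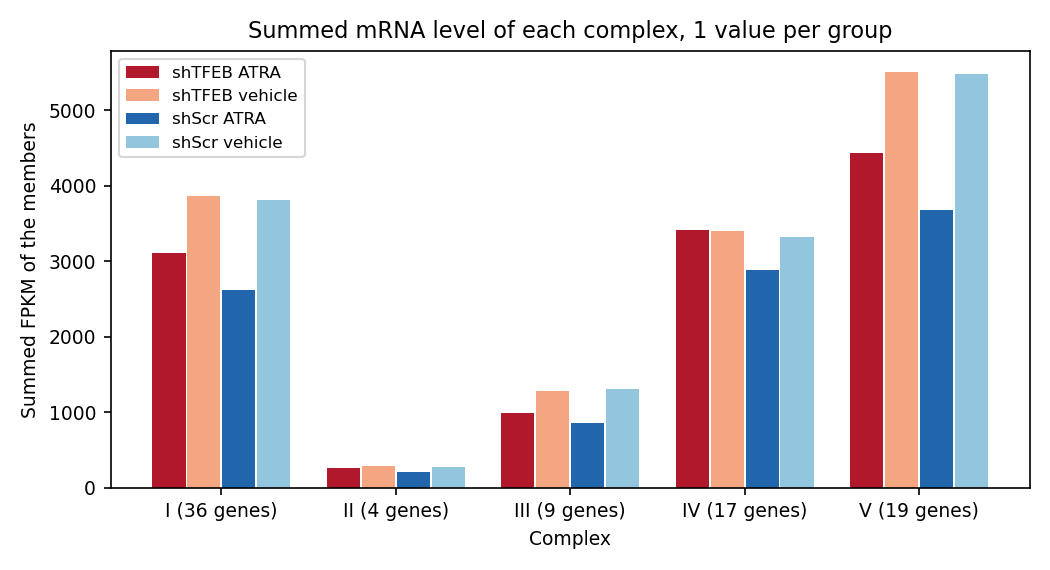
Summed FPKM of the members of each complex (bars from 0, 1 deposited value per group, no error available) in shTFEB ATRA, shTFEB vehicle, shScr ATRA and shScr vehicle cells. The ATRA bars of complexes I, III and V stand below their vehicle bars in both lines, while for complex IV the shTFEB bars are level at 3411 and 3408 FPKM.

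Gene by gene, 0 members rose and 2 fell with ATRA in shTFEB cells, beside 11.5% of all genes compared that rose and 10.1% that fell. At the 1.5-fold mark 1 member was higher and 12 were lower, beside 18.3% and 24.2% of all genes. Below 0 on the log2 scale lay 58 of 80 members, beside 57.8% of all genes, and the members' median log2 ratio was -0.25, beside -0.13 for all genes. In shScr cells 0 members rose and 7 fell (12.3% and 14.9% of all genes), 1 was higher and 33 were lower at the 1.5-fold mark (19.6% and 29.2%), and 71 lay below 0 (58% of all genes). The median there was -0.51, beside -0.16 for all genes. The share of members past the 2-fold mark was thus below that of all genes in both lines, whereas the whole set lay lower. When the groups were rescaled by the median of ratios, which moved the median of all genes up by over 0.1, 1 member fell in shTFEB cells (ATP5MC1) and 2 in shScr cells (ATP5MC1 and NDUFB9), and the members' medians were -0.10 and -0.32 with all genes at about 0. On that scale 779 of 10214 genes fell in shTFEB cells and 1109 in shScr cells. At the 1.5-fold mark 5 members were then lower in shTFEB cells and 19 in shScr cells, and after upper-quartile rescaling 11 and 22. The 1.5-fold shares of all genes above are those of the deposited scale and do not apply to these rescaled counts. Complex medians are therefore also given relative to all genes below. In bulk RNA, fewer cells of a type and less RNA per cell cannot be told apart.

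Complexes I, III and V had the lowest medians. In shTFEB cells the median log2 ratio was -0.28 in complex I, -0.39 in complex III and -0.33 in complex V. Relative to the median of all genes these were -0.15, -0.26 and -0.20. In shScr cells it was -0.53, -0.63 and -0.62, or -0.37, -0.47 and -0.46 relative to all genes. Complex IV was at 0.03 in shTFEB cells, 0.16 above all genes, and at -0.20 in shScr cells, -0.04 relative to all genes. Complex II was at -0.10 in shTFEB cells and -0.25 in shScr cells, or 0.03 and -0.09 relative to all genes, and its median in shTFEB cells turned to 0.04 when rescaled by the median of ratios. All complex medians other than that one kept their sign under both rescalings in these comparisons, but their size depended on the scaling. The summed FPKM of complex IV in shScr cells was 86.7% of vehicle as deposited. It was 98.8% after median-of-ratios and 95.3% after upper-quartile rescaling, so little of that shift was left. In shTFEB cells the sum was 100.1% as deposited, and 110.7% and 102.4% after the rescalings.

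**Figure D2:**
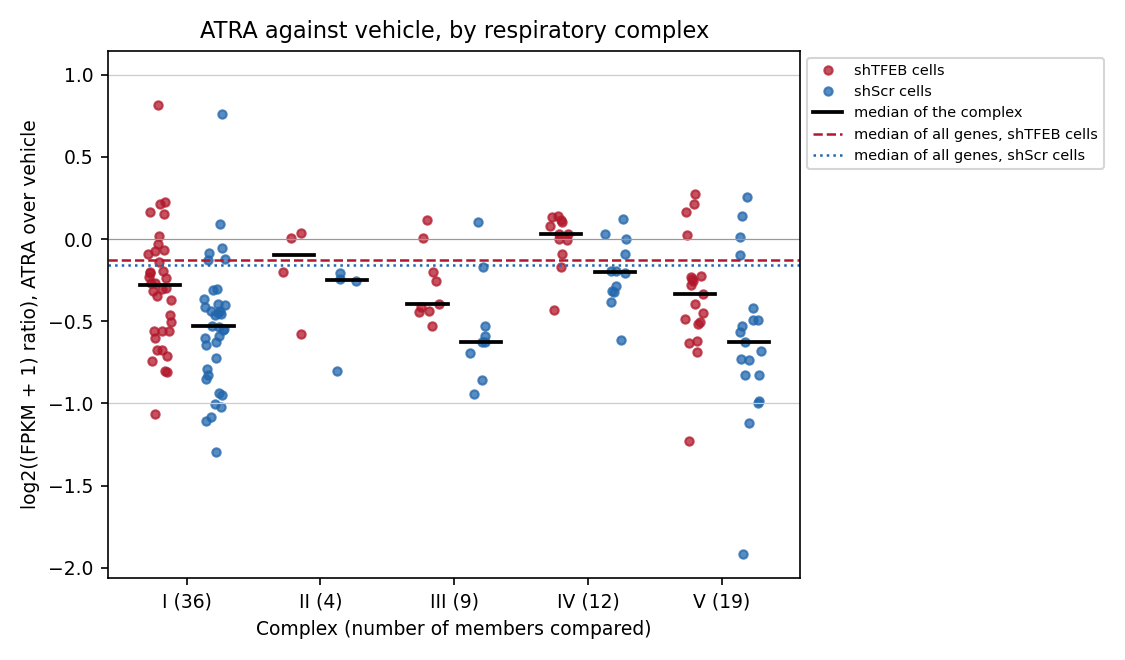
Log2 ratio of (FPKM + 1), ATRA over vehicle, for each compared member (points, shTFEB left and shScr right) with the median of each complex (black bars) and of all genes (dashed and dotted lines). Grey lines at 1 and -1 are the 2-fold marks; ATP5MC1 at -1.23 in shTFEB cells and -1.92 in shScr cells lies lowest, and complex IV lies around 0 in shTFEB cells.

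The most abundant member of complex I, NADH dehydrogenase, was NDUFA1, a small membrane subunit with 289.6 FPKM with ATRA and 258.2 with vehicle in shTFEB cells, and 249.6 and 265.3 in shScr cells. The least abundant was NDUFA10, an accessory subunit with 11.3 and 17.1 FPKM, and 10.5 and 15.7 FPKM. Of the 36 members of the complex 1 fell in shTFEB cells, and that one and 4 more fell in shScr cells, beside 10.1% and 14.9% of all genes. At the 1.5-fold mark 8 were lower in shTFEB cells and 15 in shScr cells (24.2% and 29.2% of all genes). NDUFB9 (chr8:125551343-125562227, hg19), an accessory subunit of the membrane arm, had 77.4 FPKM with ATRA and 163 with vehicle in shTFEB cells, and 71.2 and 177 in shScr cells. Its FPKM was 2.11-fold lower with ATRA in shTFEB cells and 2.48-fold lower in shScr cells (log2 -1.07 and -1.298), and its ratio in shTFEB cells lost the 2-fold mark under median-of-ratios rescaling (-0.92). Both ATRA values lay well under both vehicle values. NDUFS5, a small accessory subunit of the membrane arm, had 196 and 342 FPKM in shTFEB cells, and 156 and 337 in shScr cells, where it fell (log2 -1.11). NDUFB10, another membrane-arm subunit, had 88.1 and 141 FPKM in shTFEB cells, and 70.4 and 150.1 in shScr cells (log2 -1.08).

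The other members of complex I that fell belong to the arm that leads to the coenzyme Q site. NDUFA5, an accessory subunit of that arm, had 38.4 FPKM with ATRA and 64.9 with vehicle in shTFEB cells, and 33.3 and 68.5 in shScr cells (log2 -1.02). NDUFS3, a conserved core subunit, had 67.9 and 112 FPKM in shTFEB cells, and 54.2 and 110 in shScr cells (log2 -1.01). In both genes the order was the same: shScr ATRA lowest, then shTFEB ATRA, with the vehicle groups close together. NDUFS5, NDUFB10, NDUFA5 and NDUFS3 lost the 2-fold mark in shScr cells under both rescalings.

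By the parts of complex I, the median log2 ratio was -0.29 in shTFEB cells and -0.57 in shScr cells over the 10 genes assigned to the NADH-oxidising N module. It was -0.20 and -0.41 over the 5 genes of the Q module, and -0.30 and -0.46 over the 21 genes assigned to the membrane arm. The medians of the 3 parts lay within 0.2 of each other in each line, while genes within the membrane arm ran from -1.07 to 0.82 in shTFEB cells and from -1.298 to 0.76 in shScr cells. NDUFS1, the largest iron-sulphur subunit of the N module, had 31.2 and 38.7 FPKM in shTFEB cells and 21.4 and 32.6 in shScr cells. NDUFV1, which binds NADH, had 74.3 and 103 FPKM in shTFEB cells and 59.5 and 99.0 in shScr cells. NDUFS6, of the same module, had the lowest ratios of it in shScr cells (log2 -0.68 in shTFEB cells and -0.95 in shScr cells).

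NDUFB1, a small membrane-arm subunit (chr14:92582468-92588153, hg19), stood apart from the rest. It had 144 FPKM with ATRA and 81.3 with vehicle in shTFEB cells, and 149 and 87.6 in shScr cells, log2 ratios of 0.82 and 0.76 that passed the 1.5-fold mark and not the 2-fold mark. It was the only member past 1.5-fold upwards in either line, and both ATRA values lay above both vehicle values. Its FPKM lay above the deposited upper bounds in all groups (79.4 in shTFEB ATRA and 45.3 in shTFEB vehicle cells), so its level is uncertain. The next members of complex I in shTFEB cells were NDUFB5 (107 and 90.9 FPKM, log2 0.23), a membrane-arm subunit, and NDUFA9 (46.8 and 40.2 FPKM, log2 0.21), an accessory subunit near the coenzyme Q site. In shScr cells these had 75.01 and 77.8 FPKM, and 31.3 and 40.5 FPKM.

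**Figure D3:**
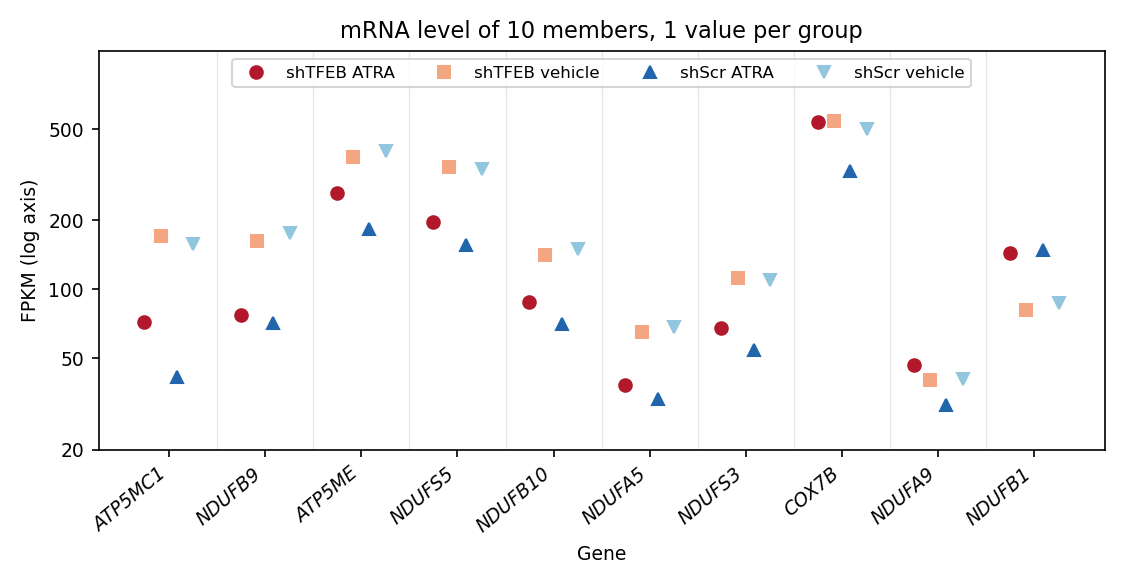
FPKM on a log axis of 10 members in shTFEB ATRA, shTFEB vehicle, shScr ATRA and shScr vehicle cells (1 deposited value per group, no error available). ATP5MC1 to NDUFS3 fell in shScr cells and lie lower with ATRA in both lines, COX7B is level in shTFEB cells (539 and 541 FPKM) and lower with ATRA in shScr cells, and NDUFB1 lies higher with ATRA in both.

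In complex II, succinate dehydrogenase, which also belongs to the citrate cycle, 0 of 4 members passed either mark in shTFEB cells and 1 passed the 1.5-fold mark in shScr cells. That was SDHA, the flavin-carrying catalytic subunit, with 53.3 FPKM with ATRA and 79.9 with vehicle in shTFEB cells, and 45.1 and 79.3 in shScr cells (log2 -0.58 and -0.80), which kept the 1.5-fold mark in shScr cells under both rescalings (-0.62 and -0.67). SDHB, the iron-sulphur subunit, had 81.7 and 79.6 FPKM in shTFEB cells, and 66.1 and 78.5 in shScr cells. The membrane anchors SDHC and SDHD differed as little: SDHD, the most abundant of the 4, had 96.2 and 95.9 FPKM in shTFEB cells, and 77.1 and 92.3 in shScr cells. The catalytic subunit was thus lower with ATRA in both lines, and its 3 partners stayed within 0.26 of 0 on the log2 scale.

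In complex III, ubiquinol-cytochrome c reductase, 0 of 9 members passed the 2-fold mark. At the 1.5-fold mark 0 were lower in shTFEB cells and 6 in shScr cells, beside 24.2% and 29.2% of all genes, and the 6 became 2 under either rescaling. UQCRH, the acidic hinge subunit at the cytochrome c docking site and the most abundant of the complex, had 546 FPKM with ATRA and 727 with vehicle in shTFEB cells, and 479 and 740.4 in shScr cells. Its retained copy UQCRHL is nearly identical, so the split between them is uncertain, and their sum was 620.1 and 827 FPKM in shTFEB cells and 535 and 843 in shScr cells (log2 -0.41 and -0.65). UQCRFS1, the Rieske iron-sulphur protein, had 54.8 and 63.1 FPKM in shTFEB cells, and 39.3 and 61.3 in shScr cells. The lowest ratio in both lines was that of UQCRQ, a small structural subunit, at -0.53 in shTFEB cells and -0.95 in shScr cells. The core proteins differed from each other: UQCRC2 had 110 and 144 FPKM in shTFEB cells and 104 and 157 in shScr cells, while UQCRC1 had 69.4 and 82.99 FPKM in shTFEB cells and 65.1 and 73.3 FPKM in shScr cells. UQCRB, a subunit at the coenzyme Q side, was the only member of the complex above 0 in both lines, with 34.3 and 31.5 FPKM in shTFEB cells and 34.6 and 32.1 in shScr cells.

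In complex IV, cytochrome c oxidase, 0 of 12 compared members passed the 2-fold mark and 1 passed the 1.5-fold mark, in shScr cells, beside 29.2% of all genes that were lower by it. COX7B (chrX:77154961-77160881, hg19), a small subunit needed for assembly of the complex, had 539 FPKM with ATRA and 541 with vehicle in shTFEB cells, and 327 and 501 in shScr cells (log2 -0.01 and -0.61). In shScr cells it lost the 1.5-fold mark under both rescalings (-0.42 and -0.48). The value of shScr ATRA cells stood apart from the other 3 groups. COX7C, the most abundant member, had 775 and 774 FPKM in shTFEB cells, and 741 and 739.5 in shScr cells, and COX8A had 337 and 305 FPKM, and 355 and 325. COX4I1, the largest nuclear subunit, had 249.8 and 281 FPKM in shTFEB cells, and 224 and 258 in shScr cells. COX5B, a zinc-binding peripheral subunit whose window is printed above, had 252 and 233 FPKM, and 215 and 246. COX7A2L, a factor of supercomplexes rather than of the oxidase alone, had the lowest ratio of the complex in shTFEB cells (73.9 and 100.2 FPKM, log2 -0.43) and 89.5 and 103 FPKM in shScr cells. Apart from COX7B and COX7A2L, ratios in complex IV ran between -0.17 and 0.14 in shTFEB cells and between -0.38 and 0.12 in shScr cells.

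Complex IV subunits come in tissue forms, and the liver-type or ubiquitous form held nearly all mRNA in every group. COX4I2, COX6A2 and COX7B2 were listed at 0 in all groups. COX7A1 had 0.0253 FPKM in shTFEB ATRA cells, 0 in shTFEB vehicle cells, 0.0659 in shScr ATRA cells and 0 in shScr vehicle cells, and COX8C had 0.173, 0.0670, 0 and 0.0393 FPKM in the same groups. These 5 members were not compared. COX6B2, known from testis, was at 1.38 to 1.496 FPKM and made up 0.792% to 1.03% of the COX6B mRNA. The order of the forms within each pair was the same in all groups.

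Complex V, ATP synthase, holds the member with the lowest ratio. Of its 19 members 1 fell in shTFEB cells, and that one and 1 more fell in shScr cells, beside 10.1% and 14.9% of all genes. At the 1.5-fold mark 4 were lower in shTFEB cells and 10 in shScr cells (24.2% and 29.2% of all genes). ATP5MC1 (chr17:46970148-46973232, hg19), which encodes the c subunit of the proton ring, had 71.9 FPKM with ATRA and 170.1 with vehicle in shTFEB cells, and 41.3 and 158 in shScr cells. Its FPKM was 2.36-fold lower with ATRA in shTFEB cells and 3.84-fold lower in shScr cells (log2 -1.23 and -1.92), the lowest ratios of all members in both lines, and both ATRA values lay under both vehicle values. ATP5ME, a membrane subunit at the dimer interface, had 264 and 377 FPKM in shTFEB cells, and 183 and 400 in shScr cells (log2 -0.51 and -1.12). Its non-coding model, left out of the sum, was listed at 0 with ATRA and 63.0 FPKM with vehicle in shTFEB cells and at 42.9 and 0 FPKM in shScr cells, and with it the ratio in shScr cells was -0.82. Under the rescalings the ratio of ATP5ME in shScr cells was -0.93 and -0.99, short of the mark. ATP5MK, also of the membrane part, lay just short of the mark in shScr cells, with 298 FPKM with ATRA and 596 with vehicle, a log2 ratio of -0.999, beside NDUFS3 just inside it.

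The c subunit is encoded by 3 genes that give the same mature protein, so their sum is the more direct measure of its mRNA. It was 407 FPKM with ATRA and 674 with vehicle in shTFEB cells, and 348 and 626 in shScr cells (log2 -0.73 and -0.85). ATP5MC1 made up 17.7% of the sum with ATRA and 25.2% with vehicle in shTFEB cells, and 11.9% and 25.3% in shScr cells. ATP5MC2 had 242 and 390 FPKM in shTFEB cells, and 245 and 378 in shScr cells, and made up 59.4% and 57.9% of the sum in shTFEB cells, and 70.4% and 60.4% in shScr cells. ATP5MC3 had 93.2 and 113 FPKM in shTFEB cells, and 61.5 and 89.3 in shScr cells.

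In the F1 head the catalytic beta subunit ATP5F1B had 573 FPKM with ATRA and 782 with vehicle in shTFEB cells, and 418 and 740.4 in shScr cells (log2 -0.45 and -0.82). Its alpha partner ATP5F1A had 384 and 449 FPKM in shTFEB cells, and 334 and 469 in shScr cells, and the gamma shaft ATP5F1C had 153 and 192 FPKM in shTFEB cells, and 119 and 197 in shScr cells. The delta subunit ATP5F1D had the lowest ratios of the head, -0.63 in shTFEB cells and -0.98 in shScr cells. ATP5F1E, the epsilon subunit and the most abundant member of the complex, went against the other 4, with 920 and 759.5 FPKM in shTFEB cells, and 851 and 773 in shScr cells (log2 0.28 and 0.14); a non-coding read-through model that overlaps it was listed at 40.6 FPKM in shScr vehicle cells and 0 elsewhere. The 4 genes of the peripheral stalk, which holds the head still, had medians of -0.32 in shTFEB cells and -0.59 in shScr cells. ATP5IF1, the inhibitor that binds the head, had 107 and 126 FPKM in shTFEB cells and 79.3 and 118 in shScr cells.

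Genes around the complexes were examined by lists, for which counts are given without a test. Assembly factors, which build the complexes and are not part of them, lay lower than the subunits: of 54 compared, 0 rose and 8 fell in shTFEB cells and 0 rose and 18 fell in shScr cells, with medians of -0.49 and -0.75. Of all genes, 11.5% rose and 10.1% fell in shTFEB cells and 12.3% rose and 14.9% fell in shScr cells. The counts that fell became 5 and 8 with median-of-ratios rescaling, 9.26% and 14.8% of the list, beside 7.66% and 10.9% of all genes on that scale. With upper-quartile rescaling they were 8 and 12, beside 959 and 1221 of all 10213 genes on that scale. NDUFAF2, a complex I assembly factor, had 9.59 FPKM with ATRA and 45.9 with vehicle in shTFEB cells, and 6.38 and 42.8 in shScr cells (log2 -2.15 and -2.57). NDUFAF4 and COX11, which delivers copper to complex IV, fell in shScr cells (log2 -1.60 and -1.63), with -0.92 and -0.99 in shTFEB cells. UQCC3 was listed at 0 in shTFEB ATRA cells, against 7.64 FPKM in shTFEB vehicle cells, 2.89 in shScr ATRA cells and 8.56 in shScr vehicle cells. Of subunits outside the symbol rule, NDUFAB1, the mitochondrial acyl carrier protein, fell in shScr cells (log2 -0.81 in shTFEB cells and -1.28 in shScr cells), and CYC1, cytochrome c1, had -0.59 and -0.66. COXFA4, a complex IV subunit long named NDUFA4, had 99.4 and 78.2 FPKM in shTFEB cells, and 93.1 and 75.1 in shScr cells.

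Of 20 compared regulators of mitochondrial biogenesis, 0 rose and 6 fell in shTFEB cells and 1 rose and 10 fell in shScr cells, with medians of -0.76 and -0.95. The shares of all genes that rose and fell were 11.5% and 10.1% in shTFEB cells, and 12.3% and 14.9% in shScr cells. With median-of-ratios rescaling 1 rose and 2 fell in shTFEB cells and 1 rose and 7 fell in shScr cells. On that scale 1327 of all 10214 genes rose and 779 fell in shTFEB cells, and 1475 rose and 1109 fell in shScr cells. With upper-quartile rescaling 0 regulators rose and 6 fell in shTFEB cells, and 1 rose and 8 fell in shScr cells. There 1204 of all 10213 genes rose and 959 fell in shTFEB cells, and 1405 rose and 1221 fell in shScr cells. MYC, a transcription factor with many mitochondrial targets, had 54.6 FPKM with ATRA and 270 with vehicle in shTFEB cells, and 25.6 and 279 in shScr cells (log2 -2.29 and -3.39). ESRRA, an orphan nuclear receptor of respiratory genes, was the regulator that rose in shScr cells (40.7 and 22.0 FPKM in shTFEB cells, and 36.6 and 17.6 in shScr cells). PPRC1, a coactivator of NRF1, had log2 ratios of -1.32 and -1.66, TFB2M, a mitochondrial transcription factor, -1.09 and -1.61, and SLIRP, which stabilises mitochondrial mRNA, -1.06 and -1.65. MYC, PPRC1, TFB2M and SLIRP thus fell in both lines, but in shTFEB cells TFB2M (-0.95) and SLIRP (-0.92) lost the mark under median-of-ratios rescaling. Among 9 carriers 0 fell in shTFEB cells and 1 in shScr cells, beside 10.1% and 14.9% of all genes. The carrier that fell was the outer membrane channel VDAC1 (log2 -0.80 and -1.21). CYCS, cytochrome c, had 56.6 and 77.4 FPKM in shTFEB cells and 38.6 and 77.6 in shScr cells. SLC25A5, the most abundant ATP and ADP exchanger, had 403 and 432 FPKM in shTFEB cells, and 460.2 and 448 in shScr cells.

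Of 13 citrate cycle genes 0 fell in shTFEB cells and 2 fell in shScr cells, FH, fumarase (log2 -0.88 and -1.21), and IDH3B, of isocitrate dehydrogenase (log2 -0.84 and -1.04), beside 14.9% of all genes. IDH3B lost the mark in shScr cells under both rescalings (-0.85 and -0.91). Of 8 compared genes of the pyruvate dehydrogenase complex and its regulators, 0 fell in shTFEB cells and 1 in shScr cells, beside 10.1% and 14.9% of all genes. The gene that fell was DLAT, the acetyltransferase of the complex (log2 -0.80 and -1.24). Of 13 coenzyme Q genes 1 rose and 2 fell in shTFEB cells, and 0 rose and 4 fell in shScr cells, with COQ3 and COQ8A falling in both lines and PDSS1 and COQ2 in shScr cells, beside the same shares of all genes as given for the assembly factors. With median-of-ratios rescaling COQ3 in shTFEB cells (-0.98) lost the mark, and COQ2 in shScr cells lost it under both rescalings (-0.84 and -0.89). COQ10B, a coenzyme Q chaperone, rose in shTFEB cells (27.8 and 13.1 FPKM) and had 17.7 and 10.9 FPKM in shScr cells. PDSS1, of the side-chain synthase, was listed at 0 in shScr ATRA cells, against 10.5, 17.4 and 15.9 FPKM in shTFEB ATRA, shTFEB vehicle and shScr vehicle cells, and no fold is given for it.

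**Figure D4:**
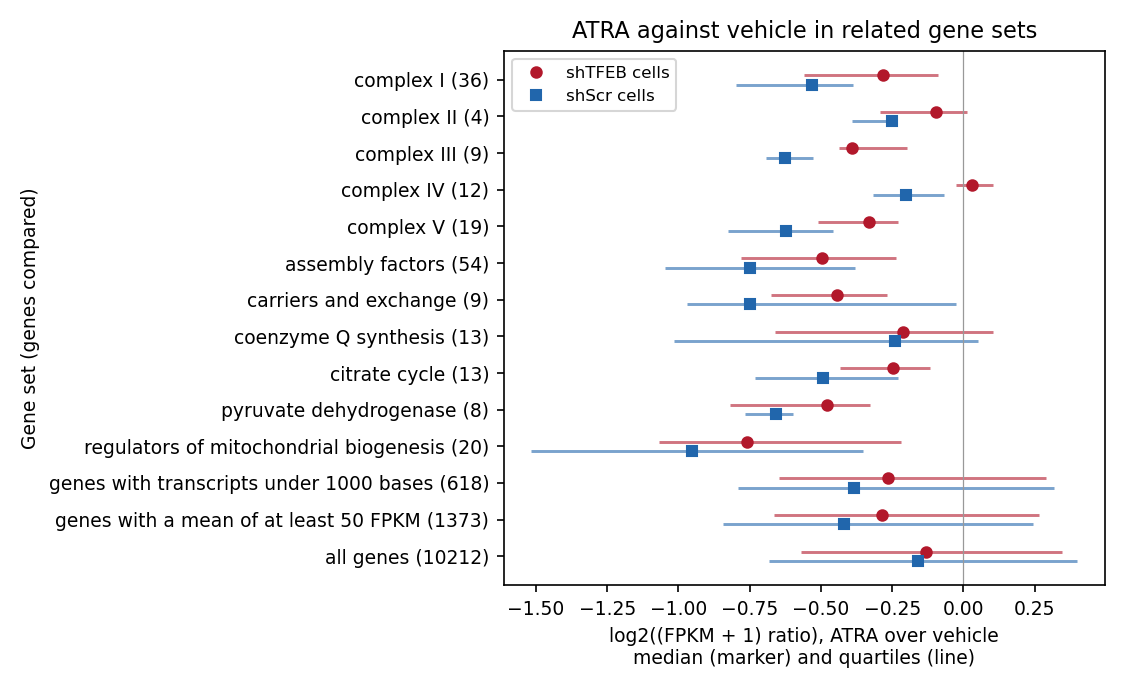
Median (marker) and quartiles (line) of the log2 ratio of (FPKM + 1), ATRA over vehicle, for the complexes, the related gene lists, short and abundant genes and all genes, in shTFEB (circles) and shScr (squares) cells. Regulators of mitochondrial biogenesis lie lowest, at -0.76 and -0.95, and complex IV highest among the complexes, at 0.03 and -0.20.

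The members are short and abundant, and short and abundant genes as a whole also lay lower with ATRA. Of 78 members with a transcript length, 44 were under 1000 bases. All 618 compared genes of that class had medians of -0.27 in shTFEB cells and -0.38 in shScr cells, and the 1373 genes with a mean of at least 50 FPKM had -0.29 and -0.42. The members' medians of -0.25 and -0.51 lay at that level in shTFEB cells and below it in shScr cells. Among members, the medians were -0.25 and -0.52 for the 44 short ones and -0.24 and -0.45 for the 34 longer ones. The part of transcript length and abundance in the complex medians was not tested.

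The hairpin comparison asks whether the same mRNAs differ where TFEB mRNA was reduced. Under ATRA 0 members rose or fell in shTFEB against shScr cells, beside 2.24% of all genes that were higher and 1.07% that were lower by 2-fold. At the 1.5-fold mark 3 were higher and 0 lower, beside 6.98% and 3.4% of all genes. The shift was small and shared: 70 of 80 members lay above 0, beside 59.9% of all genes, with a median log2 ratio of 0.27, beside 0.07 for all genes, and a range of -0.27 to 0.79. With median-of-ratios and upper-quartile rescaling 65 and 60 members lay above 0, the median was 0.20 and 0.15, and relative to all genes it was 0.19 and 0.18, against 0.20 as deposited. The medians of the complexes were 0.28 in complex I, 0.27 in complex II, 0.19 in complex III, 0.26 in complex IV and 0.24 in complex V, all within 0.1 of each other. Short genes as a class had a median of 0.10 and abundant genes 0.14.

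The 3 members past the 1.5-fold mark under ATRA were ATP5MC1 (71.9 FPKM in shTFEB cells and 41.3 in shScr cells, log2 0.79), COX7B (539 and 327, log2 0.72) and ATP5MC3 (93.2 and 61.5, log2 0.59), of which ATP5MC3 lost that mark under both rescalings (0.52 and 0.48). ATP5MC3 was also the member with the highest ratio under vehicle (113 FPKM in shTFEB cells and 89.3 in shScr cells, log2 0.34). NDUFA9 (46.8 and 31.3 FPKM) and UQCR11, a small subunit of complex III (28.97 and 19.3 FPKM), followed at 0.57 and 0.56. At the other end COX7A2L was at -0.27, and ATP5MGL, a copy of the membrane subunit gene ATP5MG with 6.35 FPKM in shTFEB cells and 6.74 in shScr cells, and COX8A were both at -0.07. Among the regulators MYC rose under ATRA in shTFEB against shScr cells (54.6 and 25.6 FPKM, log2 1.06), but was short of the mark in both rescalings. Of the assembly factors SCO2, which brings copper to complex IV, rose (log2 1.02, short of the mark in both rescalings), and UQCC3, at 0 in shTFEB ATRA cells, was the only one counted as lower.

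Under vehicle, where TFEB mRNA was not lower in the group labelled shTFEB, the members differed little. Again 0 rose or fell, beside 0.637% of all genes higher and 0.362% lower, and 0 passed the 1.5-fold mark (2.07% and 1.18%). The median was 0.02 for members and 0.02 for all genes, and ratios ran from -0.17 (UQCR10) to 0.34. Above 0 lay 44 members, beside 55.8% of all genes, and below it 36, a split that turned to 36 and 44 with median-of-ratios rescaling. After ATP5MC3 the highest were COX7A2 (198 FPKM in shTFEB cells and 160 in shScr cells, log2 0.31) and NDUFS1 (log2 0.24), and near the lower end stood COX5A (178 and 195 FPKM, log2 -0.13) and UQCRC2 (144 and 157 FPKM, log2 -0.12). Summed FPKM of the complexes in the group labelled shTFEB was 98.0% to 102% of shScr vehicle cells.

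**Figure D5:**
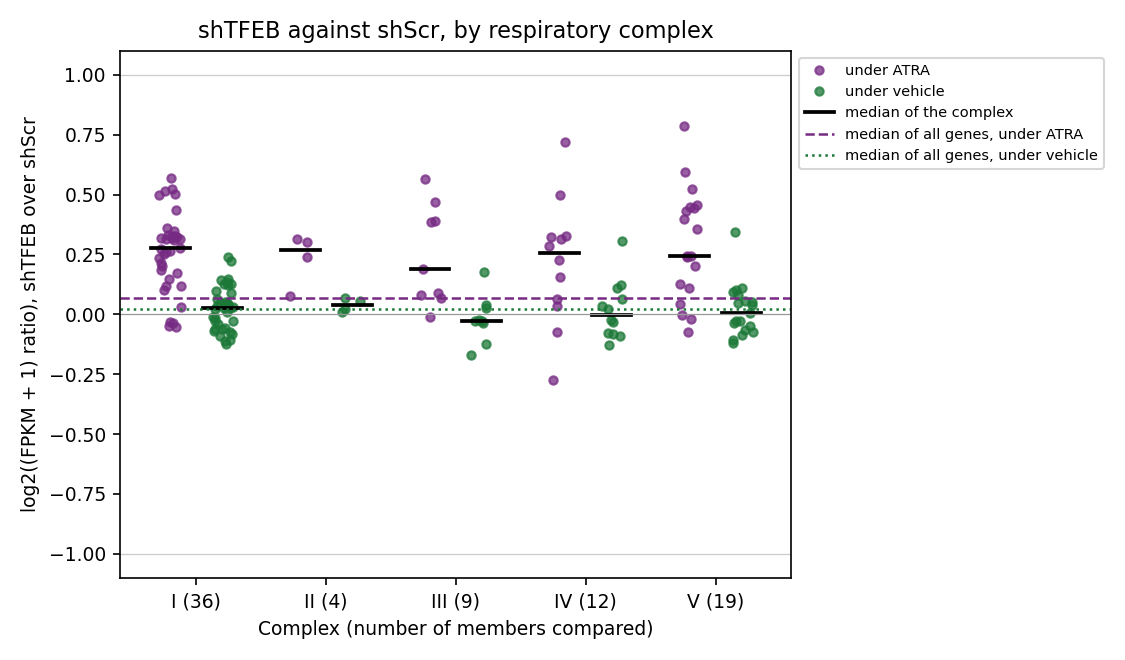
Log2 ratio of (FPKM + 1), shTFEB over shScr, for each compared member (points, under ATRA left and under vehicle right) with the median of each complex (black bars) and of all genes (dashed and dotted lines). Under ATRA the medians of all 5 complexes lie between 0.19 and 0.28, and under vehicle they lie within 0.04 of 0.

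The 2 ATRA responses were also set against each other, as the log2 ratio in shTFEB cells minus that in shScr cells. The value is made of the same 4 group values as the comparisons above and is no independent support for them. At the 2-fold mark 0 members were higher and 0 lower, beside 1.72% and 1.15% of all genes, and at the 1.5-fold mark 3 were higher and 0 lower (5.22% and 3.78%). The 3 were ATP5MC1 (0.68), ATP5ME (0.61) and COX7B (0.61). After median-of-ratios rescaling 1 of them, ATP5MC1 (0.64), still passed it, and after upper-quartile rescaling 0. With non-coding models added, 2 members passed the 1.5-fold mark and ATP5ME did not. Its non-coding model was listed at 0 with ATRA and 63.0 FPKM with vehicle in shTFEB cells. In shScr cells that model was listed at 42.9 FPKM with ATRA and 0 with vehicle. The difference was above 0 for 72 of 80 members, beside 57.2% of all genes, with a median of 0.26, beside 0.05. It was above 0 for 66 and 63 members under the median-of-ratios and upper-quartile rescalings. The median of all genes was then 0.009 and -0.043, so the share of 57.2% does not apply to these counts. Among the lowest were COX7A2L (-0.24) and UQCRC1 (-0.09). With 1 value per group the difference between the responses could not be tested.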

How the data were processed

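RNA of 8 samples in 4 groups (2 per group in the labels) was sequenced. The authors deposited FPKM values, for which the submitters' processing notes name TopHat, Cufflinks, Cuffdiff and the hg19 build; tool versions are not given in the sources used here. How the 2 samples of a group were combined is not stated, and the group of both shScr ATRA samples was taken from the treatment field. Each deposited table lists 65986 models, each with an FPKM, its bounds and a status flag; every model of the members had the status OK.

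Symbols came from a RefSeq gene table (GRCh38.p14, names alone), which matched 97.9% of 34445 protein-coding accessions. FPKM and bounds were summed over the protein-coding models of a symbol, with Python 3.11.15, pandas 2.3.3 and NumPy 2.4.6, and figures used matplotlib 3.10.9. Genes with a mean of at least 1 FPKM were compared with a pseudocount of 1 FPKM. Among the 80 compared members, FPKM lay above the upper bound in all groups for 42, so the bounds were not used as errors. Transcript lengths are those of GENCODE transcripts matched by accession and serve as a class only.

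Named were TFEB, members past 2-fold, the 3 highest and 3 lowest members per comparison (with 5 FPKM or more in either group), the most abundant member of each complex, isoform pairs, members not compared, and up to 4 genes per list; other members were chosen after their values were seen, to describe the parts of each complex. A few named or listed genes are not reported here. Members and lists were chosen with earlier results of these data known. RefSeq now names NDUFA4 COXFA4, which put it outside the rule. Pseudogenes of these names number 124 in RefSeq, for 28 members, and 16 member loci overlap another symbol; whether counting used strand is not stated, so reads could be shared there. The alternatives tried were no filter, pseudocounts of 0.1 and 5 FPKM, a mean of at least 5 FPKM, 2 rescalings, the highest model alone, models with status OK, non-coding models added, bounds that do not overlap, and COXFA4 counted with complex IV. Midpoints of the bounds were added after seeing the data. The calculation was tested on simulated data with set folds and no added noise. That checks the arithmetic and says nothing on the error between samples.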

Additional observations from a re-analysis of the deposited data

Results flagged for a closer look

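Of the 80 compared members, 13 had log2 ratios of opposite sign for ATRA against vehicle in the 2 lines, all 13 above 0 in shTFEB cells and below 0 in shScr cells. The difference, shTFEB minus shScr, was 0.58 for NDUFA9, 0.54 for UQCR11, 0.45 for COX5A, 0.37 for COX6C and 0.35 for COX6B1. It was 0.31 for COX5B, 0.28 for each of NDUFB4, SDHB and NDUFB5, 0.26 for SDHD, 0.25 for NDUFA1, 0.19 for COX7A2 and 0.12 for ATP5PD. None of the 13 passed the 2-fold or the 1.5-fold mark in either line, and with 1 value per group the difference was not tested. With either rescaling 8 of the 13 still had opposite signs and 5 did not. Counted anew, 17 members had opposite signs after median-of-ratios rescaling, 15 of them above 0 in shTFEB cells. After upper-quartile rescaling 11 members had opposite signs, 10 of them above 0 in shTFEB cells. The share of all genes with opposite signs was not counted.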

How the results depend on the processing

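No paired analysis was possible because the tables hold 1 value per group, and for the same reason no replicate could be left out. Members past the 2-fold mark with ATRA numbered 1 in shTFEB cells under median-of-ratios rescaling, and in shScr cells 2 under median-of-ratios and 2 under upper-quartile rescaling. With median-of-ratios rescaling the members' median was -0.10 in shTFEB cells and -0.32 in shScr cells. Counts at the 1.5-fold mark and calls of single genes that a rescaling ends stand beside their results. The median of shTFEB against shScr under ATRA was 0.20 and 0.15 under the rescalings. The whole scale moved: of all genes, 1475 rose and 1109 fell in shScr cells after median-of-ratios rescaling, against 1255 and 1524 as deposited. With no filter the median of all genes was about 0, which by construction set complex medians relative to all genes at -0.094 (II) and -0.33 (V) in shTFEB cells, and at -0.25 (II), -0.63 (III), -0.19 (IV) and -0.62 (V) in shScr cells. No called value changed direction. With a pseudocount of 5 FPKM, NDUFA5 (-0.94), NDUFS3 (-0.96) and TFEB under ATRA (-0.86) lost the mark. Midpoints of the bounds, chosen after seeing the data, kept the counts within 1.5 times and the medians in place. Depth and the spread of samples set a limit that these tables cannot show.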
